A study of Homo sapiens with 11 samples.

Results

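CIITA and 7 genes of the MHC class II pathway, namely CD74, HLA-DRA, HLA-DRB1, HLA-DPA1, HLA-DPB1, HLA-DMA and HLA-DMB, were examined across 11 established cell lines of T-cell acute lymphoblastic leukemia (T-ALL). They are 8 of the 19775 genes measured, and they were chosen by name and not by their values. For each gene the values come from the probe set that had the highest mean across all lines, out of 16 probe sets that carry no other gene symbol. A single HG U133 Plus 2.0 array was measured for every line, so the line is the replicate and no error is known for a single line. The NKL-positive group comprised JURKAT, LOUCY, ALL-SIL, PEER, HPB-ALL and CCRF-CEM, and the NKL-negative group comprised SUP-T1, CML-T1, MOLT-16, MOLT-14 and MOLT-4. NKL status stands for expression of homeobox genes of the NKL subclass, and the labels name no treatment and no genetic modification. The comparison of the groups took 5 lines each and left JURKAT out, as the study did.

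Values are RMA levels on the log2 scale, and the depth of an array is described by its own distribution. The array medians ran from 4.63 to 4.76, the lower quartiles from 3.45 to 3.60 and the upper quartiles from 6.68 to 7.18. Of 10 T-cell markers, 9 lay above the array median in every line, and CD3D, a chain of the T-cell receptor complex, ran from 12.64 to 13.44. Of markers listed for other lineages, 2 of 9 measured B-cell markers exceeded the upper quartile of an array in at least 1 line. These were CD79A with up to 10.12 in CML-T1 and CD79B with up to 8.25 in LOUCY. Of 9 myeloid markers, 2 did so, CST3 with up to 9.71 in CCRF-CEM and FCER1G with up to 7.68 in LOUCY. Of 7 dendritic markers, 1 did so, CD1C with up to 11.28 in HPB-ALL. CLEC4C, CLEC10A and FCER1A passed the array median in no line, while IL3RA passed it in 8 lines, LILRA4 in 5 and XCR1 in 1. What CD1C marks in these lines was not tested. Of the other B-cell markers, MS4A1 reached 6.54 in CML-T1 and CD22 6.33 in MOLT-4, while PAX5 did not pass 5.77. Of the other myeloid markers, ITGAM reached 7.08 in CML-T1, SPI1 6.22 in LOUCY and LYZ 5.48 in LOUCY, while CD14 did not pass 3.98. Bacterial poly-A control transcripts, which are spiked into the RNA, had mean levels of 3.01 to 3.14 in MOLT-16, HPB-ALL and CML-T1, against 5.96 to 9.48 in the remaining 8 lines. The ribosomal RNA controls averaged 10.03 to 11.78 in those 3 lines and 5.67 to 11.52 in the others. Where they were missing, single poly-A probe sets read from 2.61 to 4.06, which shows how far a probe set without a target can read on these arrays. In bulk RNA, fewer expressing cells and less RNA per cell cannot be told apart.

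MHC class II molecules present peptides from endocytosed proteins to helper T-cells, and each is a heterodimer of an alpha and a beta chain. Professional antigen-presenting cells express them throughout, while human T-cells acquire them on activation. Transcription depends on CIITA, a coactivator that does not bind DNA itself and is recruited to the X and Y boxes of the class II promoters by the RFX complex, CREB1 and NF-Y. CD74, the invariant chain, occupies the peptide groove until the endosome, where HLA-DM exchanges its remnant for peptide.

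Class II promoters are known for X and Y boxes at a fixed spacing, and the stretches from 140 to 31 bases before the RefSeq start site are printed to show where these letters occur in the members (GRCh38.p14). A window was found for 6 of the 8 genes. Capitals mark CCAAT, the core of the Y box, GNAACNG, a core of the X box, TGACG, the site of the X2 box, and TGATGA, which was added after the windows had been seen. All were searched on both strands, and GNAACNG can overlap TGATGA by some bases.
HLA-DRB1: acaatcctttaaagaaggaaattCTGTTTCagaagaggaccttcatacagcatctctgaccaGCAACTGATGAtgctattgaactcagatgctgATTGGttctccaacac
HLA-DMB: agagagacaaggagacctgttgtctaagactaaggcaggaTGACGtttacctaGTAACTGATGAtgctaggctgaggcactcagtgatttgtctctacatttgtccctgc
HLA-DMA: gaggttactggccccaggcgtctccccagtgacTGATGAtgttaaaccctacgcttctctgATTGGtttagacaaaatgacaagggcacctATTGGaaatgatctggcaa
CD74: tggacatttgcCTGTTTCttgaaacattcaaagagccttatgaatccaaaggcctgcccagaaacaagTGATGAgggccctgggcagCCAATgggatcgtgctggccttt
HLA-DPA1: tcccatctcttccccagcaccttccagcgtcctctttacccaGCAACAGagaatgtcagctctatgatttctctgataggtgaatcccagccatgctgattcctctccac
HLA-DPB1: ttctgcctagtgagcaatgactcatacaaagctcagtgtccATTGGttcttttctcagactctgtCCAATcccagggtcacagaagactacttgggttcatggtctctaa
The HLA-DRB1 stretch lies at chr6:32589879-32589988 on the minus strand and holds a GNAACNG match running into TGATGA, which starts 73 bases before the start site. A CCAAT match on the opposite strand begins 46 bases before it. HLA-DMB, at chr6:32941059-32941168 on the minus strand, holds the same junction with TGATGA at 82 bases before its start, and a TGACG match at 100 bases. HLA-DMA, at chr6:32953128-32953237 on the minus strand, holds TGATGA at 107 bases and CCAAT matches at 79 and 49 bases before its start. CD74, at chr5:150412941-150413050 on the minus strand, holds TGATGA at 72 bases and CCAAT at 53 bases before its start. HLA-DPA1 has 2 annotated start sites, and the stretch shown, chr6:33073680-33073789 on the minus strand, belongs to the start near HLA-DPB1. HLA-DPB1, at chr6:33075850-33075959 on the plus strand, holds CCAAT matches at 99 and 75 bases. Over the whole windows, from 250 bases before to 50 bases after the start, CCAAT occurred in 5 of the 7 member windows and in 34.6% of all 35116 windows. GNAACNG occurred in 6 of 7 and in 41.9% of all, TGACG in 4 of 7 and in 24.6%, and TGATGA in 5 of 7 and in 10.9%. A match is a run of letters and not a proven site.

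The levels of the 8 genes were low in every line. Of the 88 values, 34 lay above the median of their array, 8 lay at or below its lower quartile and 0 exceeded its upper quartile. Over all genes, 59.2% of values lay above the array median and 37.2% above the upper quartile. Counted by gene, 49.3% of all genes had no value above the upper quartile in any line. The values of the members ran from 3.16 to 6.09, and 22 of them lay at or below 4.06, the highest reading of a poly-A probe set without its target. None of the 16 probe sets exceeded the upper quartile in any line. No line stood out for a member. A stand-out was a level that exceeded the array median and, by at least 2 log2 units, the median of the remaining lines. Over all genes, 11.5% stood out in at least 1 line, so 0 among 8 genes does not set the members apart. The ranges over the lines were 1.12 to 2.02 log2 units, against a median range of 1.66 over all genes. MOLT-16 had 5 members above its array median and CML-T1 and JURKAT had 4 each, while the other lines had 2 or 3.

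**Figure D1:**
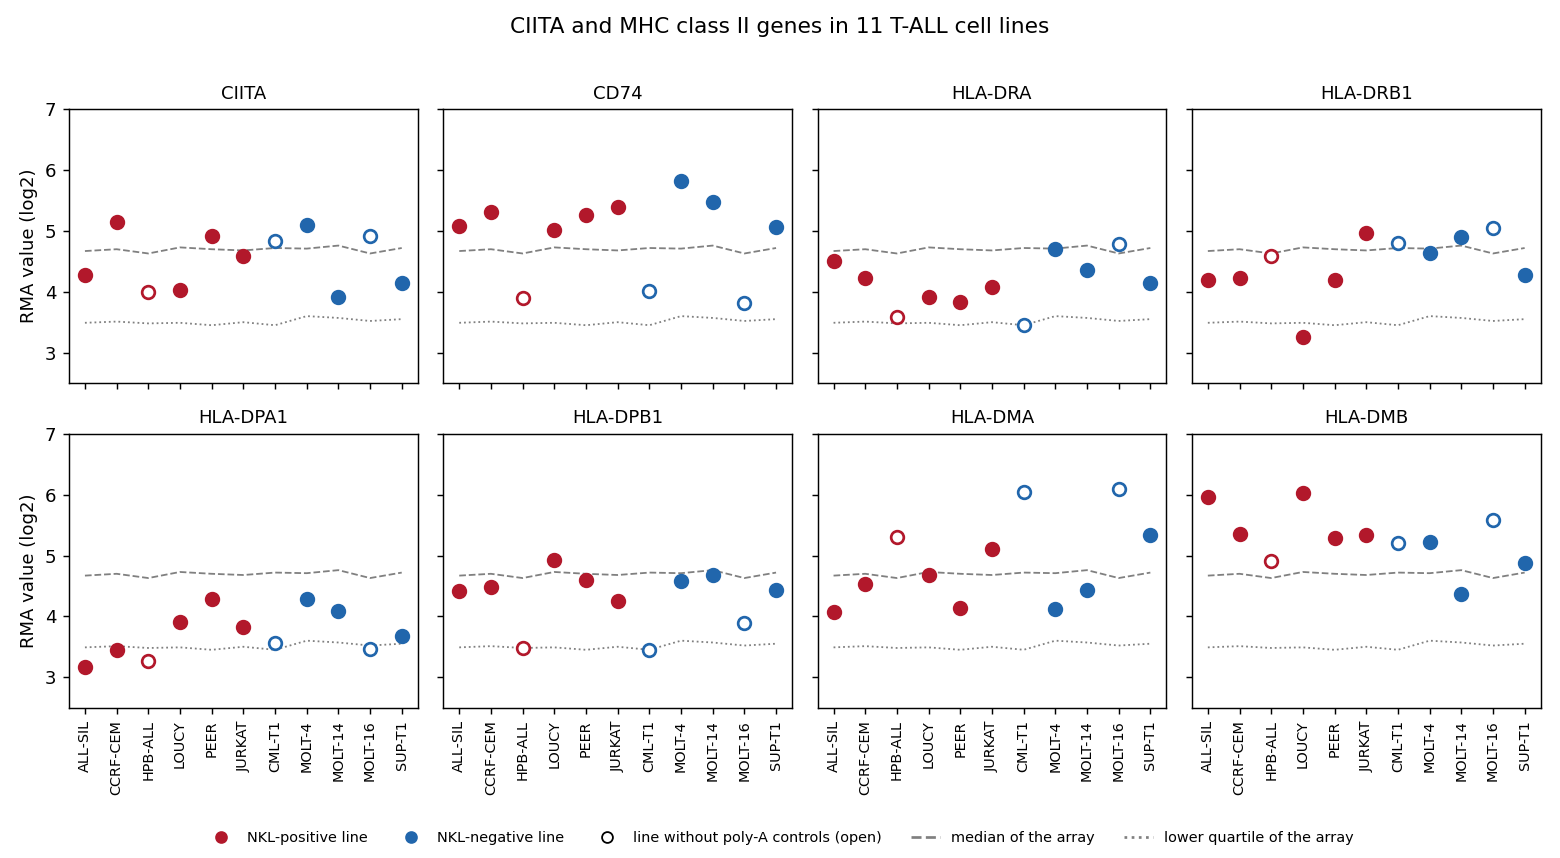
RMA level on the log2 scale (y axis) of each of the 8 genes in each of the 11 lines (x axis), 1 array a line; red points are NKL-positive lines, blue points NKL-negative lines, open points the 3 lines without poly-A controls, and the dashed and dotted lines are the median and the lower quartile of each array. All values lie between 3.16 and 6.09, and the open points of CD74 lie below all filled ones.

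CIITA, the gene of the master coactivator on chromosome 16 (10866206 to 10943021), measured 4.28 in ALL-SIL, 5.14 in CCRF-CEM, 4.0 in HPB-ALL, 4.03 in LOUCY, 4.91 in PEER and 4.59 in JURKAT. In the NKL-negative lines it measured 4.84 in CML-T1, 5.10 in MOLT-4, 3.92 in MOLT-14, 4.91 in MOLT-16 and 4.15 in SUP-T1. CCRF-CEM and MOLT-4 were at the top, MOLT-14 and HPB-ALL at the bottom, and both groups spanned nearly the same range. In 5 lines it lay above their array median, and 3 values lay at or below 4.06. The other CIITA probe sets read from 2.96 to 4.01 (205101_at) and from 2.75 to 4.54 (211884_s_at), and their profiles over the lines correlated with the chosen one at r = -0.06 and -0.25. The 3 probe sets therefore gave no common order of the lines.

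CD74, the invariant chain on chromosome 5 (150401639 to 150412910), measured 5.08 in ALL-SIL, 5.31 in CCRF-CEM, 3.89 in HPB-ALL, 5.01 in LOUCY, 5.26 in PEER and 5.40 in JURKAT. In the NKL-negative lines it measured 4.02 in CML-T1, 5.82 in MOLT-4, 5.47 in MOLT-14, 3.82 in MOLT-16 and 5.07 in SUP-T1. The 3 low lines were those without poly-A controls, and the other 8 lay above their array medians. A further probe set of CD74, 209619_at, read from 3.85 in CCRF-CEM to 5.09 in MOLT-16, so that MOLT-16 was the lowest line by the chosen probe set and the highest by this one. The 2 profiles correlated at r = 0.09, and the third probe set, 1567628_at, correlated with the chosen one at r = 0.53 over the 11 lines.

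HLA-DRA encodes the nearly invariant alpha chain of HLA-DR and lies on chromosome 6 (32439887 to 32445046). It measured 4.51 in ALL-SIL, 4.22 in CCRF-CEM, 3.59 in HPB-ALL, 3.91 in LOUCY, 3.83 in PEER and 4.08 in JURKAT. In the NKL-negative lines it measured 3.45 in CML-T1, 4.71 in MOLT-4, 4.36 in MOLT-14, 4.78 in MOLT-16 and 4.15 in SUP-T1. Only MOLT-16 lay above its array median, and the second probe set, 208894_at, stayed between 3.26 and 4.04 with r = 0.64 to the chosen one, the highest among the 11 pairs of probe sets of a member. HLA-DRB1, the main polymorphic beta chain (chromosome 6, 32578775 to 32589848), measured 4.19 in ALL-SIL, 4.22 in CCRF-CEM, 4.59 in HPB-ALL, 3.26 in LOUCY, 4.19 in PEER and 4.96 in JURKAT. In the NKL-negative lines it measured 4.81 in CML-T1, 4.64 in MOLT-4, 4.90 in MOLT-14, 5.05 in MOLT-16 and 4.28 in SUP-T1. LOUCY was the lowest line and lay under its lower quartile, and 4 of the 5 NKL-negative lines exceeded all NKL-positive lines but JURKAT. HLA-DRB1 was read from its single probe set without another symbol, 5 further ones carry several symbols, and how well the probes match the allele of each line was not tested.

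HLA-DPA1, the alpha chain of HLA-DP (chromosome 6, 33064569 to 33080748), was at or below the lower quartile in 4 lines and above the median in none. It ran from 3.16 in ALL-SIL over a median of 3.67 to 4.28 in PEER and MOLT-4. HLA-DPB1, its partner beta chain (chromosome 6, 33075990 to 33089696), measured 4.42 in ALL-SIL, 4.48 in CCRF-CEM, 3.48 in HPB-ALL, 4.92 in LOUCY, 4.59 in PEER and 4.25 in JURKAT. In the NKL-negative lines it measured 3.45 in CML-T1, 4.58 in MOLT-4, 4.68 in MOLT-14, 3.89 in MOLT-16 and 4.44 in SUP-T1. The lines without poly-A controls were again the 3 lowest, and LOUCY alone exceeded its array median. The second HLA-DPB1 probe set, 244485_at, read from 2.97 to 3.57.

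HLA-DMA and HLA-DMB encode the chains of the peptide exchange factor and were each read from a single probe set. HLA-DMA (chromosome 6, 32948618 to 32953097) measured 4.07 in ALL-SIL, 4.54 in CCRF-CEM, 5.31 in HPB-ALL, 4.68 in LOUCY, 4.13 in PEER and 5.11 in JURKAT. In the NKL-negative lines it measured 6.05 in CML-T1, 4.12 in MOLT-4, 4.44 in MOLT-14, 6.09 in MOLT-16 and 5.34 in SUP-T1. MOLT-16 and CML-T1 were the top lines, followed by SUP-T1 and HPB-ALL, which differed by less than the spread within either group. HLA-DMB (chromosome 6, 32934636 to 32941028) was above the array median in 10 lines, the most of any member, and ran from 4.36 in MOLT-14 over a median of 5.29 to 6.03 in LOUCY. The chains of HLA-DM thus had different top lines, LOUCY for HLA-DMB and MOLT-16 for HLA-DMA.

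The comparison of NKL-positive with NKL-negative lines asked whether class II genes differ with the activity of NKL homeobox genes. None of the 8 members passed the test (limma, Benjamini-Hochberg adjustment over 54613 probe sets, threshold 0.05), at a background of 0.0152% of all genes called, 3 of 19775. In 1 member the unadjusted p was under 0.05, and 1041 genes in all were so. This was HLA-DRB1, which averaged 4.09 ± 0.49 in NKL-positive lines and 4.74 ± 0.30 in NKL-negative lines (SD, n = 5 each). Its difference was -0.65 (SE 0.26, 95% interval -1.23 to -0.07, limma adjusted p = 0.981). CIITA averaged 4.47 ± 0.52 in NKL-positive lines and 4.58 ± 0.52 in NKL-negative lines (SD, n = 5 each), a difference of -0.11 with an interval of -0.81 to 0.59. For HLA-DRA the difference was -0.28 (-0.91 to 0.35) and for CD74 it was 0.07 (-0.89 to 1.03). By the chosen probe sets, a difference of a log2 unit lay outside the intervals of CIITA, HLA-DRA, HLA-DPA1 and HLA-DPB1. It lay inside those of the other 4 members. Another CIITA probe set, 211884_s_at, had a difference of 0.49 (SE 0.33, limma adjusted p = 0.981). The intervals concern array levels, and whether transcript amounts differ 2-fold was not tested. HLA-DMA had a difference of -0.66 (-1.60 to 0.28) and HLA-DMB one of 0.46 (-0.18 to 1.11), so the chains of HLA-DM pointed in opposite directions without either passing the test. Of the members 3 were higher and 5 lower in NKL-positive lines, with a median difference of -0.16 against -0.002 over all genes, of which 9849 were higher and 9926 lower. The lines of both groups overlapped for all 8 members, as for most genes, since 0.905% of all genes showed groups without overlap. With the 3 lines without poly-A controls left out, 4 NKL-positive and 3 NKL-negative lines remained, and again no member passed the test. In these lines the differences of CIITA and CD74 had the other sign, 0.20 and -0.29, and HLA-DRB1 (lower in NKL-positive lines) and HLA-DMB (higher) showed no overlap between the groups, at a background of 7.88% of all genes.

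**Figure D2:**
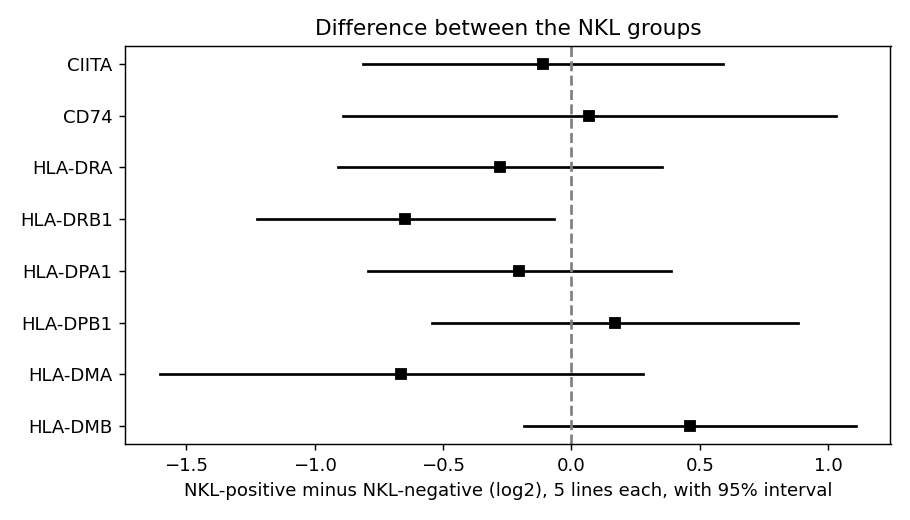
Difference in RMA level between NKL-positive and NKL-negative lines (x axis, log2, positive where NKL-positive lines were higher) for each of the 8 genes (y axis), with limma's 95% interval, 5 lines each. The interval of HLA-DRB1, -1.23 to -0.07, is the sole one that leaves out 0, and its adjusted p was 0.981.

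Part of the spread between lines went with the poly-A controls. The labels give no batch, and the lines were divided by these control probe sets into MOLT-16, HPB-ALL and CML-T1, which lack them, and the others. CD74 averaged 3.91 ± 0.10 in the lines without poly-A controls (SD, n = 3) and 5.30 ± 0.27 in the lines with them (SD, n = 8). In a fit of 10 lines with NKL status and this division as terms, its difference was -1.43 (SE 0.20, limma adjusted p = 0.00573). HLA-DPB1 averaged 3.61 ± 0.25 in the lines without (SD, n = 3) and 4.55 ± 0.20 in the lines with poly-A controls (SD, n = 8). Its difference in the fit of 10 lines was -0.99 (SE 0.19, limma adjusted p = 0.0160). HLA-DMA moved the other way, with 5.82 ± 0.44 in the lines without (SD, n = 3) and 4.55 ± 0.47 in the lines with poly-A controls (SD, n = 8). Its difference in the fit of 10 lines was 1.24 (SE 0.29, limma adjusted p = 0.0306). Thus 3 of 8 members were called, at a background of 8.17% of all genes, 343 higher and 1273 lower. CD74 and HLA-DPB1 showed no overlap between these lines, at a background of 12.4% of all genes. For both genes the 3 values without poly-A controls lay at or below 4.06, the highest reading of a poly-A probe set without its target. Leaving out each of the 10 lines in turn, CD74 was called 10 times, HLA-DPB1 8 times (not without HPB-ALL, adjusted p = 0.0756, or CML-T1, adjusted p = 0.0589) and HLA-DMA 3 times. The HLA-DMA call was lost without ALL-SIL, HPB-ALL, PEER, CML-T1, MOLT-4, MOLT-14 or MOLT-16, with adjusted p up to 0.0991.

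Among the other probe sets of CD74 and HLA-DPB1 none was called. For 1567628_at of CD74 the difference was -0.67 (SE 0.38, limma adjusted p = 0.299) and for 209619_at it was -0.11 (SE 0.28, limma adjusted p = 0.846), while for the second HLA-DPB1 probe set it was -0.14 (SE 0.18, limma adjusted p = 0.679). Among the remaining probe sets, 211884_s_at of CIITA was called with -0.96 (SE 0.23, limma adjusted p = 0.0345), while the chosen CIITA probe set had 0.06 (SE 0.36, limma adjusted p = 0.944). HLA-DRA, HLA-DRB1, HLA-DPA1 and HLA-DMB were not called. NKL status and the controls were not balanced, since 1 NKL-positive and 2 NKL-negative lines of the comparison lack them. The part of sample preparation in these differences was not tested.

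**Figure D3:**
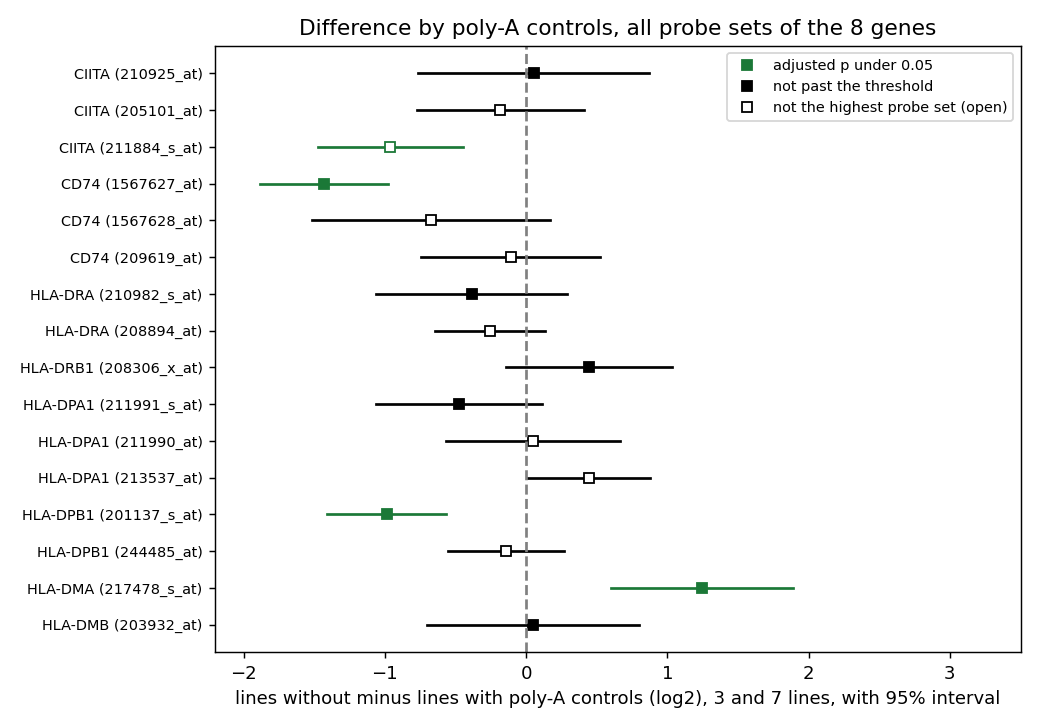
Difference in RMA level between the 3 lines without and the 7 lines with poly-A controls (x axis, log2, negative where the lines without were lower) for the 16 probe sets of the 8 genes (y axis), from limma with NKL status as a second term and with 95% intervals; filled squares are the probe sets by which a gene was read, green those past the threshold. CD74 has -1.43 at its filled square, -0.67 at 1567628_at and -0.11 at 209619_at.

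Class II genes usually rise and fall together in cells that express CIITA, and the 28 pairs of members were therefore compared over the 11 lines as a description. Their Pearson r had a median of 0.08 and ran from -0.81 for CD74 and HLA-DMA to 0.83 for CD74 and HLA-DPB1, with 16 pairs above 0. Within the 8 lines with poly-A controls the median was -0.14, and CD74 and HLA-DPB1 had r = -0.13. These lines share the array type and the laboratory. Over the 11 lines, the 11 pairs of probe sets of the same member had a median r of 0.19, from -0.26 to 0.64. With so little likeness within a gene, a low r between members cannot show whether they vary together.

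The gene with a profile most like that of HLA-DRA, among 7172 genes with a range of at least 2 log2 units, was PECAM1, an adhesion molecule of endothelium and leukocytes (r = 0.85, Spearman coefficient 0.88 over 11 lines, r = 0.80 without CML-T1 and MOLT-16). EDDM13, ZFAT, BCL9L and PSG1 followed with r of 0.84 to 0.81. For CIITA the nearest was ARHGAP29 (r = 0.81, Spearman coefficient 0.67, and r = 0.80 without MOLT-14 and HPB-ALL), followed by NIBAN3, FBXL16, BEX5 and TENM1 with r of 0.80 to 0.78. For CD74 the nearest were LINC01770 (r = 0.98) and PLXDC1 (r = 0.97), then NKPD1, CCNP and LOC390705 with r of 0.97 to 0.96. All 5 genes nearest to CD74 were lower in each line without poly-A controls than in any line with them. LINC01770 had up to 3.71 in the lines without and at least 5.30 in the lines with them. The nearest genes are the best of 7172 over 11 lines. Of these 15 genes, 2 were also among the nearest by rank correlation and 1 without the 2 farthest lines.

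The genes around the members were taken from lists. Of the other class II genes 7 were measured, of which 0 exceeded the upper quartile in any line and 0 the median in all. HLA-DQB1, a beta chain of HLA-DQ, ran from 4.0 in HPB-ALL to 6.50 in CML-T1, and HLA-DQA1, its alpha chain, did not pass 3.97. HLA-DOA, a chain of the HLA-DM inhibitor HLA-DO, ran from 3.71 to 6.10 and HLA-DOB, the other chain, from 3.85 to 5.78. In NKL-positive lines 2 of the 7 were higher and 5 lower, and 0 were called.

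All 7 factors that bind the class II promoters lay above the array median in all 11 lines, and 6 lay above the upper quartile in all. RFX5, the DNA-binding subunit of the RFX complex, ran from 9.43 in SUP-T1 to 10.30 in MOLT-16. Its partners RFXANK and RFXAP ran from 8.45 to 9.65 and from 7.77 to 8.65, and CREB1, which binds the X2 box, from 8.57 to 9.66. NFYA, NFYB and NFYC, the subunits of NF-Y, reached 9.72, 9.44 and 8.37. None differed between the NKL groups by the test, and RFX5 averaged 9.84 ± 0.16 in NKL-positive lines and 9.94 ± 0.36 in NKL-negative lines (SD, n = 5 each). All 8 coactivators with which CIITA works, among them the acetyltransferase CREBBP (7.34 to 9.66) and the remodeller SMARCA4 (9.90 to 10.98), lay above the median in all lines. So did 6 of 6 measured genes upstream of CIITA, including IFNGR1 (7.39 to 9.23), a chain of the interferon gamma receptor, its kinase JAK1 (8.35 to 11.09) and the transcription factor IRF1 (7.18 to 9.48). Neither list held a called gene. Over all genes, 50.7% exceeded the upper quartile in at least 1 line. The share of all genes above the median or the upper quartile in every line was not counted. For any list, whether its count of such genes is unusual was therefore not tested.

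Of 7 genes known to restrain CIITA, 4 lay above the median in all lines, among them the DNA methyltransferase DNMT1 (10.47 to 11.48). EZH2, the H3K27 methyltransferase of the polycomb complex PRC2, measured 2.53 in LOUCY and between 9.73 and 11.19 in the other lines. In LOUCY the members had levels of 3.26 to 6.03, with HLA-DPB1 and HLA-DMB at their highest and HLA-DRB1 at its lowest. SOCS1, an inhibitor of JAK signalling, ran from 4.19 in JURKAT to 9.71 in CML-T1. PRDM1, which silences CIITA in plasma cells, averaged 4.77 ± 0.41 in NKL-positive lines and 5.67 ± 0.41 in NKL-negative lines (SD, n = 5 each), a difference of -0.90 (SE 0.26, limma adjusted p = 0.860). No gene of this list was called.

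Among 8 measured genes of class II processing and turnover, 7 were higher and 1 lower in NKL-positive lines and 0 were called, with a median difference of 0.31. CTSS, the protease that trims the invariant chain, averaged 7.31 ± 0.65 in NKL-positive lines and 5.56 ± 1.71 in NKL-negative lines (SD, n = 5 each), a difference of 1.75 (SE 0.73, limma adjusted p = 0.981). SPPL2A, which clears the last membrane fragment of CD74, ran from 7.57 to 9.75. The ubiquitin ligase MARCHF8 ran from 6.22 to 8.28 and MARCHF1, its relative that removes class II molecules from the surface, did not pass 4.20. The cytokine MIF, a ligand of CD74, ran from 12.11 to 13.28 and CXCR4, a partner of the CD74 receptor complex, from 10.80 to 12.65. CD44, its signalling partner, varied from 3.34 in SUP-T1 to 11.37 in CML-T1.

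MHC class I genes share the RFX and NF-Y factors but use NLRC5 in place of CIITA. NLRC5, TAP1, TAP2 and TAPBP were counted in the class I list. Of 8 measured, 7 exceeded the array median in all lines and 5 the upper quartile in all, and NLRC5 exceeded the median in 10 lines. B2M, the light chain, ran from 12.78 to 13.53 and HLA-B, a heavy chain, from 9.74 in MOLT-14 to 13.18 in LOUCY. NLRC5 ran from 4.28 in SUP-T1 to 8.38 in LOUCY. All 8 were higher in NKL-positive lines with a median difference of 0.43, but 0 were called. Genes of T-cell activation, a state in which human T-cells express class II molecules, were uneven. CD69, an early activation antigen, ran from 2.64 in ALL-SIL to 11.10 in MOLT-16, while IL2RA, a chain of the interleukin receptor, did not pass 5.71. Of 6 measured, 2 were higher and 4 lower in NKL-positive lines and 0 were called. Levels of different probe sets depend on their probes, so these positions compare each gene with the array as a whole and no gene with another. The class I counts above the median or the upper quartile in all lines likewise have no background of all genes.

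**Figure D4:**
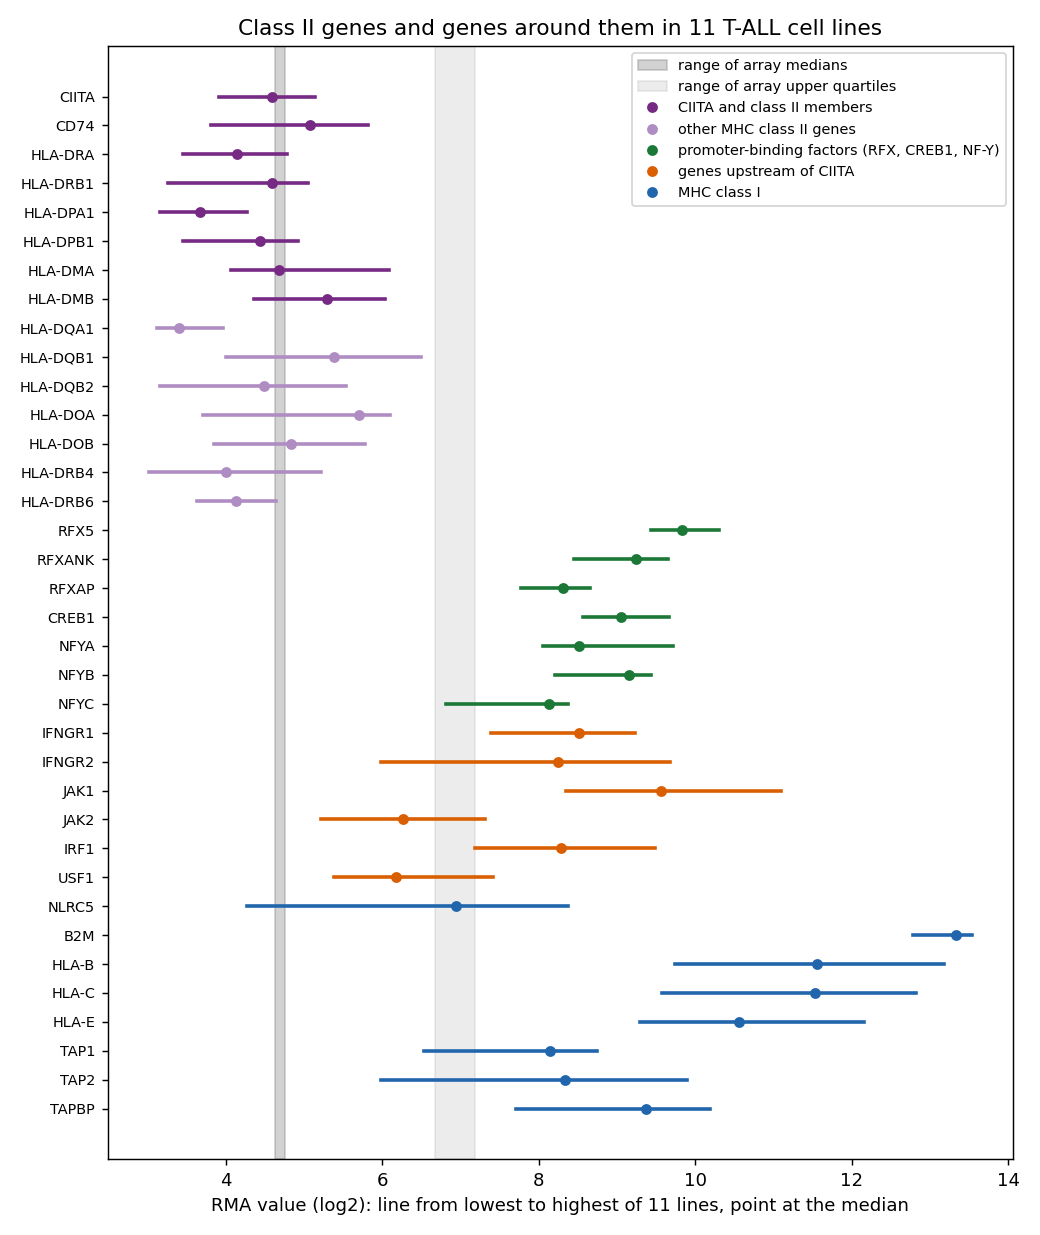
RMA level on the log2 scale (x axis) of each gene (y axis) from the lowest to the highest of the 11 lines, with a point at the median, for the 8 genes, the other class II genes, the factors binding class II promoters, the genes upstream of CIITA and MHC class I genes; grey bands show the ranges of the array medians and upper quartiles. The members end at 6.09, under the band of upper quartiles, and RFX5 begins at 9.43, above that band.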

How the data were processed

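The authors deposited RMA values on the log2 scale for 1 HG U133 Plus 2.0 array of each line, and these were taken as they stand. Control probe sets, 62 in number, entered no test, and symbols came from the array annotation. Tests used linear models and empirical Bayes moderation in limma 3.58.1 (R 4.3.3) on all other 54613 probe sets, unfiltered, with Benjamini-Hochberg adjustment over them and a threshold of 0.05. The procedure was run on simulated data with independent noise, no effect of the poly-A controls and planted differences larger than those of the members. This run cannot show how the test does with differences as small as those of the members. The members, the lists, the division by poly-A controls (mean under 4) and the named genes, which are the members, genes of the lists and the 5 genes of at least 2 log2 units range with the highest r to each of HLA-DRA, CIITA and CD74, were chosen with earlier results of these data known. Correlations are descriptions without a test. Promoter windows were those of RefSeq for GRCh38.p14. A gene of a list without a probe set of a single symbol was not analysed here. P-values set a difference between groups of lines against the moderated spread between lines, and precision is limited by the number of arrays. Alternatives are given with the closing observations.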

Additional observations from a re-analysis of the deposited data

Results flagged for a closer look

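In 19 of 142 groups examined, 2 for each of 71 named genes, a line lay far from the rest of its group, its gap to the nearest line taking more of the range than Dixon's critical value of 0.625 for 6 or 0.71 for 5 lines. Chance flags about 1 group in 20 where genes are independent and not chosen by their values. The named genes include some chosen for a profile like that of a member, so the count of flags cannot be set against this rate. Of the members, CD74 was flagged, in HPB-ALL with 3.89 (0.742 of the range of NKL-positive lines). CD74, LINC01770, PLXDC1 and CCNP were lower in each line without poly-A controls than in any line with them. HPB-ALL is the sole NKL-positive line without these controls. In the same line HLA-DQB1 had 4.0 (0.629), MS4A1 had 4.54 (0.716), CD14 had 3.53 (0.644), CD1C had 11.28 (0.669), LINC01770 had 3.71 (0.726), PLXDC1 had 3.42 (0.653) and CCNP had 4.54 (0.722). LOUCY stood apart with 2.53 for EZH2 (0.855), 3.21 for LGMN (0.832), 9.25 for CD79A (0.655) and 6.22 for SPI1 (0.725), and ALL-SIL with 2.64 for CD69 (0.632) and 5.47 for PSG1 (0.633). Among NKL-negative lines, MOLT-16 had 13.02 for HLA-B (0.887), 8.06 for NFYA (0.735) and 7.10 for FCER1G (0.767), and CML-T1 had 9.40 for CREB1 (0.729) and 3.67 for EDDM13 (0.712).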

How the results depend on the processing

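No member was called under any alternative that gave the count, and the lowest adjusted p of a member was 0.606. Members whose NKL groups did not overlap, counted under all alternatives after seeing the data, numbered 0 to 1 with a line left out (HLA-DRB1 without HPB-ALL, background 2.28%, or without SUP-T1, 1.86%), 2 in the lines with poly-A controls (HLA-DRB1 and HLA-DMB, 7.88%) and 0 otherwise. Of 155 alternative differences 141 kept their direction and 14 turned. Some of the 141 could not turn, so the count does not measure robustness. The intensity trend and the filter at the median mean leave a difference as it is. So does the mean over probe sets for HLA-DRB1, HLA-DMA and HLA-DMB, which have a single probe set. The directions that turned were the following. For CIITA these were 0.0816 with array weights, 0.20 in the lines with poly-A controls and 0.13 as the mean over probe sets, and 0.006 without HPB-ALL and 0.017 without MOLT-4. For CD74 they were -0.22 with a poly-A term, -0.29 in the lines with poly-A controls and -0.0707 as the mean over probe sets, and -0.03 without CCRF-CEM, -0.0175 without PEER, -0.14 without CML-T1 and -0.19 without MOLT-16. For HLA-DPB1 they were -0.0274 with a poly-A term and -0.0195 without CML-T1. Leaving out each line in turn, the differences ran from -0.28 to 0.017 for CIITA, -0.19 to 0.33 for CD74, -0.49 to -0.16 for HLA-DRA, -0.77 to -0.44 for HLA-DRB1, -0.37 to -0.09 for HLA-DPA1, -0.0195 to 0.39 for HLA-DPB1, -0.93 to -0.44 for HLA-DMA and 0.29 to 0.61 for HLA-DMB. The filter at the median mean kept 3 members. With the mean over probe sets, 22 in place of 34 of 88 member values lay above the array median. Of the 15 genes nearest in profile, 2 were also found by rank correlation and 1 without the 2 farthest lines. By the poly-A controls, 1 to 3 members were called with a line left out and 3 with JURKAT added, which were chosen after seeing the data. The cause was not tested. No paired analysis was possible because a cell line belongs to a single group.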
